A study of Mus musculus with 8 samples.

Results

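Mitophagy receptors and the proteins that divide and fuse mitochondria were followed through 10 genes, taken by name from the table of read counts: *Bnip3*, *Bnip3l* and *Fundc1* for the receptors, *Pink1* for the damage sensor, *Mfn1*, *Mfn2* and *Opa1* for fusion, and *Dnm1l*, *Fis1* and *Mff* for fission. Each name matched a row among the 32390 of the table, and all 10 were abundant enough to be tested, together with 12725 rows in all. The muscle was gastrocnemius of 21-month-old male mice on a C57BL/6 background fed standard low-fat chow, with 4 *Nox4* fl/fl mice as controls and 4 *Mck*-Cre;*Nox4* fl/fl mice as the NOX4-deficient group. Both groups carried the floxed *Nox4* allele, and Cre was added only in the NOX4-deficient mice, where the muscle creatine kinase promoter is active in striated muscle, so that recombination can also occur in heart. Poly(A) RNA was sequenced in unstranded libraries, and reads were counted per gene.

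Mitophagy is the removal of mitochondria by autophagosomes. BNIP3, BNIP3L and FUNDC1 sit in the outer mitochondrial membrane and bind the LC3 and GABARAP proteins of the forming autophagosome directly, whereas PINK1 accumulates on depolarized mitochondria and starts their tagging with ubiquitin, after which ubiquitin-binding adaptors make the link. Fission by DRP1, the product of *Dnm1l*, separates pieces of the network small enough to be engulfed, and the mitofusins and OPA1 join the outer and inner membranes of neighboring mitochondria.

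*Bnip3* was the only gene of the 10 that was called between genotypes, and it was lower in NOX4-deficient muscle. Its transcript stood at 54.9% of the control level, whereas the paralog *Bnip3l* stood at 96.2% and was not called. None of the 10 genes was called higher. The 9 genes not called had log2 fold changes between -0.06 and 0.28. A call required an adjusted p-value below 0.05 in edgeR's quasi-likelihood test together with a log2 fold change larger than 0.5 in size, and by this rule 3.48% of all rows tested were called lower and 2.68% were called higher. The median log2 fold change was 0.09 over the 10 genes and 0.01 over all rows tested.

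Because the *Bnip3* transcript carried the change, the sequence upstream of its start is given here (RefSeq, GRCm38.p6, chr7:138909507-138909756, minus strand, 250 bases that end 1 base before the annotated start). The palindromic E-box CACGTG is in capitals and lies 108 to 103 bases before the start.
*Bnip3* upstream sequence: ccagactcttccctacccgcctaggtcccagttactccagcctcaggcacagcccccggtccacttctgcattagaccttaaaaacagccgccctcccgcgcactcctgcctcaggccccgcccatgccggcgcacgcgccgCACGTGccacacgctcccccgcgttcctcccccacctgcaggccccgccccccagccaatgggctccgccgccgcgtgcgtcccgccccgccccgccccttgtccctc
The stretch was GC-rich (72.4% G or C). The same 6 letters hold the core of the hypoxia response element, ACGTG, on both strands, so that both motifs mark the same position. RefSeq windows running from 250 bases before to 50 bases after a start were searched on both strands for 5 motifs. Of the 10 genes 9 had an entry (all but *Bnip3l*), with 14 windows between them. CACGTG was present in 1 of the 14 windows, that of *Bnip3*, and in 7.15% of all 32851 windows. ACGTG was present in windows of *Bnip3* and *Mfn2* and in 19.6% of all windows. In *Mfn2* it lay 39 to 35 bases before 1 of the 3 annotated starts, a position that also spans another of these starts. The FOXO core GTAAACA (3.65% of all windows), the estrogen-related receptor element TCAAGGTCA (0.423%) and the antioxidant response element TGACNNNGC (12.4%) were in none of the 14 windows. These matches are letters in a sequence, and no binding was measured.

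The libraries held 16350548 to 19804661 counts on genes, and the labels do not divide them into batches. Each gene of the 10 was covered by at least 457 counts in every library. *Nox4* itself, the deleted gene, had 85, 48, 35 and 70 counts in controls 1 to 4 and 29, 43, 42 and 37 in NOX4-deficient mice 1 to 4. Scaled to the size of the libraries by the TMM method, this was 3.27 ± 1.42 CPM (SD, n = 4) in controls and 2.07 ± 0.220 CPM in the NOX4-deficient group. The log2 difference of -0.65 (SE 0.292) did not pass edgeR's test (adjusted p = 0.207), and the groups overlapped. With 1 library left out it ranged from -0.82 to -0.36, smallest in size without control 1, and was never called. Counts were low, and in bulk muscle they include transcripts of cells without Cre. The extent of deletion in muscle fibers was not measured here. By qPCR, the paper reports *Nox4* mostly lost in skeletal muscle of younger mice of this genotype. Transcripts that define skeletal muscle, such as *Acta1* and *Ckm*, were abundant in every library, and their summed level was 160461 to 197877 CPM in controls and 172011 to 204006 CPM in NOX4-deficient muscle. Summed blood markers (*Hba-a1*, *Hbb-bs* and *Alas2*) ranged from 47.6 to 52.7 CPM in controls and from 72.3 to 159 CPM in NOX4-deficient muscle, and 2 of the 3 were called higher. Summed leukocyte markers ranged from 35.9 to 93.2 and from 22.0 to 50.2 CPM with 0 of 10 called, and summed slow-fiber markers from 363 to 756 and from 488 to 1302 CPM with 1 of 9 called higher (*Casq2*). For adipocytes, endothelium, and fibroblasts and tendon, the summed levels of the groups overlapped, with 1 of 23 genes called (*Vwf*, higher). Abundant genes weigh most in such sums, as did *Fabp4* (167 CPM in controls) for adipocytes and *Dcn* (370 CPM) for fibroblasts and tendon. The median log2 fold change was 0.32 for adipocyte markers (5 positive, 2 negative) and 0.11 for endothelial markers (4 positive, 3 negative). It was 0.32 for fibroblast and tendon markers (7 positive, 2 negative). The part of blood, fiber type or other cells in the differences given here was not tested, and in bulk muscle fewer cells of a type cannot be told apart from less RNA per cell.

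*Bnip3* encodes a receptor of the outer membrane whose transcription is known to respond to hypoxia and, in muscle, to FOXO3 during wasting. Its level was 257, 283, 312 and 440 CPM in controls 1 to 4 and 176, 159, 194 and 180 CPM in NOX4-deficient mice 1 to 4. All 4 NOX4-deficient mice lay below the lowest control. The means were 323 ± 81.2 and 177 ± 14.4 CPM (SD, n = 4 each), and the log2 fold change was -0.87 (SE 0.153, 95% interval -1.20 to -0.53). The adjusted p was 0.00619 in edgeR's test, rank 191 by p-value among the 12725 rows, and the CPM values gave 0.0286 in an exact permutation test (two-sided), the smallest p that 4 mice against 4 allow. The controls were the more scattered group, with a coefficient of variation of 25.1% against 8.14%, and control 4 stood above the other controls. Without control 4 the log2 fold change was -0.68 (SE 0.110, adjusted p = 0.00621 in edgeR's test), still called. Of the 12725 rows tested, 8.97% had every NOX4-deficient mouse below every control, and *Bnip3* was the only gene of the 10 among them.

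An antisense gene, *Gm45507*, overlaps 504 bases of the *Bnip3* exons (22.3%) in the GENCODE M21 annotation. Since the libraries keep no strand, its reads could be counted on *Bnip3* and cannot be told apart there. *Gm45507* had 0 counts in all 8 libraries, a number that would also miss reads shared by both genes. *Dnm1l* and *Mff* likewise overlap a gene on the other strand over 4.67% and 2.00% of their exons, with 1 and 6 counts in all 8 libraries for these partners.

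**Figure D1:**
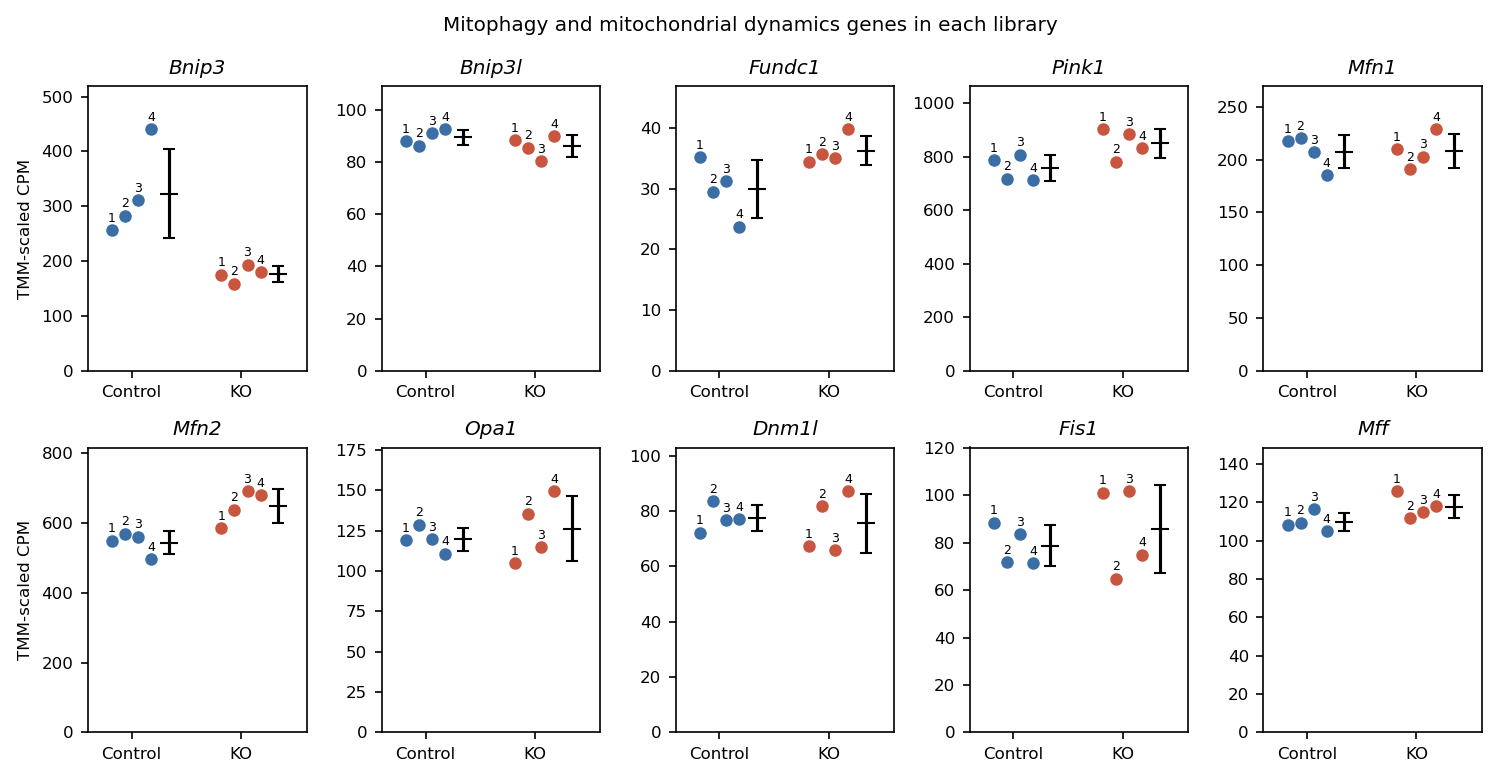
TMM-scaled CPM (linear axes from 0) of each of the 10 genes in every library. Points are mice, numbered by replicate, and bars are the mean ± SD of 4 mice. The 4 NOX4-deficient (KO) values of *Bnip3*, from 159 to 194 CPM, all lie below the lowest control at 257 CPM, and those of *Mfn2* all lie above the highest control.

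*Bnip3l*, also called NIX, is the closest relative of *Bnip3* and is known for clearing mitochondria from maturing red blood cells. Controls 1 to 4 had 87.9, 86.3, 91.1 and 92.4 CPM and NOX4-deficient mice 1 to 4 had 88.4, 85.5, 80.3 and 90.0 CPM. These values overlapped and were among the least scattered of the 10 genes. The log2 fold change was -0.06 (SE 0.0868, 95% interval -0.24 to 0.13), with an adjusted p of 0.751 in edgeR's test. Its interval lies well inside the fold change required for a call in either direction.

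The balance of the paralogs, taken as a ratio within each library, differed between genotypes. *Bnip3* exceeded *Bnip3l* by ratios of 2.92, 3.28, 3.42 and 4.76 in controls 1 to 4 and of 1.99, 1.86, 2.41 and 2.00 in NOX4-deficient mice 1 to 4. The highest ratio in NOX4-deficient muscle was below the lowest in controls. The mean log2 ratio differed by -0.78 (NOX4-deficient minus control; exact two-sided permutation test, p = 0.0286, the smallest possible, with 2 paralog pairs compared). This ratio is formed within a library and does not depend on how the libraries were scaled to each other. Because *Bnip3l* changed little, the ratio largely restates the difference of *Bnip3* and is not a separate result.

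*Fundc1* encodes a receptor that is controlled by phosphorylation and is known from hypoxic mitophagy. It was the least abundant of the 10 genes in CPM, with 35.2, 29.5, 31.2 and 23.8 CPM in controls 1 to 4 and 34.5, 35.7, 35.0 and 39.8 CPM in NOX4-deficient mice 1 to 4. Control 1 lay within the range of the NOX4-deficient mice, and control 4 was the lowest library. The log2 fold change was 0.28 (SE 0.124, 95% interval 0.01 to 0.55), with an adjusted p of 0.207 in edgeR's test, and it was 0.18 without control 4. *Fundc1* and *Bnip3* were the exceptions among the 10 genes whose interval extended beyond a log2 fold change of 0.5 in size.

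*Pink1* encodes the kinase that marks damaged mitochondria by phosphorylating ubiquitin on their surface. Its level was 789, 718, 808 and 713 CPM in controls 1 to 4 and 903, 782, 885 and 833 CPM in NOX4-deficient mice 1 to 4. Of the 4 NOX4-deficient mice, 3 were above the highest control, and NOX4-deficient mouse 2 was inside the control range. The log2 fold change was 0.17 (SE 0.0990, 95% interval -0.05 to 0.38; adjusted p = 0.338 in edgeR's test).

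*Mfn1* and *Mfn2* encode the mitofusins, GTPases of the outer membrane, and MFN2 also tethers mitochondria to the endoplasmic reticulum. *Mfn1* had 217, 220, 207 and 186 CPM in controls 1 to 4 and 210, 191, 203 and 229 CPM in NOX4-deficient mice 1 to 4. The group means were alike at 208 ± 15.7 and 208 ± 15.8 CPM (SD, n = 4 each), and the log2 fold change of 0.00 had a 95% interval from -0.21 to 0.22 (SE 0.0989; adjusted p = 0.992 in edgeR's test). *Mfn2* was the more abundant mitofusin, with 550, 570, 561 and 497 CPM in controls 1 to 4 and 586, 639, 692 and 681 CPM in NOX4-deficient mice 1 to 4. Here every NOX4-deficient mouse was above every control, as was so for 7.2% of all rows tested.

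The mean of *Mfn2* was 544 ± 32.4 CPM (SD, n = 4) in controls and 649 ± 48.1 CPM (n = 4) in the NOX4-deficient group, or 119% of the control level. The log2 fold change of 0.25 (SE 0.0991, 95% interval 0.04 to 0.47) was short of the size required and did not pass edgeR's test (adjusted p = 0.144), although the exact permutation test of the CPM values gave 0.0286. Over the 19 alternative settings tried, its adjusted p ranged from 0.0568, with DESeq2 in R, to 0.304, and it was called in none of them. Within each library *Mfn2* exceeded *Mfn1* by 2.53, 2.59, 2.71 and 2.68 in controls 1 to 4 and by 2.79, 3.35, 3.41 and 2.98 in NOX4-deficient mice 1 to 4. These ratios did not overlap between genotypes, with a mean log2 ratio higher by 0.25 (exact two-sided permutation test, p = 0.0286, the smallest possible). Because the means of *Mfn1* were alike, this is not a separate result from that of *Mfn2*. Control 4 had the lowest level of both mitofusins among the controls.

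*Opa1* encodes the dynamin-like GTPase that fuses the inner membrane and keeps the cristae narrow. It had 119, 129, 120 and 111 CPM in controls 1 to 4 and 105, 135, 115 and 150 CPM in NOX4-deficient mice 1 to 4. The NOX4-deficient values spread on both sides of the control range. The log2 fold change was 0.08 (SE 0.119, 95% interval -0.18 to 0.34; adjusted p = 0.749 in edgeR's test), and it was nearly 0 when NOX4-deficient mouse 4 was left out.

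*Dnm1l* encodes DRP1, the GTPase that constricts the outer membrane. Its level was 72.2, 83.6, 76.7 and 77.0 CPM in controls 1 to 4 and 67.3, 81.8, 65.9 and 87.2 CPM in NOX4-deficient mice 1 to 4. The log2 fold change was -0.03 (SE 0.112, 95% interval -0.28 to 0.21; adjusted p = 0.892 in edgeR's test). As for *Opa1*, the NOX4-deficient mice bracketed the controls.

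*Fis1* and *Mff* encode outer membrane proteins, of which MFF is a main docking site for DRP1. *Fis1* had 88.6, 71.8, 83.6 and 71.4 CPM in controls 1 to 4 and 101, 64.9, 102 and 75.0 CPM in NOX4-deficient mice 1 to 4. Its log2 fold change was 0.12 (SE 0.149, 95% interval -0.20 to 0.44; adjusted p = 0.675 in edgeR's test). *Mff* had 108, 109, 116 and 105 CPM in controls 1 to 4 and 126, 112, 115 and 118 CPM in NOX4-deficient mice 1 to 4. It was the more even of the pair, with a log2 fold change of 0.10 (SE 0.0884, 95% interval -0.09 to 0.29; adjusted p = 0.543 in edgeR's test), and only NOX4-deficient mice 1 and 4 exceeded the highest control.

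*Fis1* was split by the numbering of the libraries and not by genotype. All 4 libraries with an odd replicate number (83.6 to 102 CPM) were above all 4 with an even number (64.9 to 75.0 CPM). Among the NOX4-deficient mice, *Opa1* and *Dnm1l* had the opposite order, lower in both odd-numbered than in both even-numbered libraries. The labels give no meaning to the parity of the number and do not divide the libraries into batches. With odd or even number as a term in the fit, the SE of *Fis1* fell from 0.149 to 0.0879. The split was read from these same values, so this fall follows from it and is not separate support for it. Under this term the genotype difference of *Fis1* was 0.10 (log2; adjusted p = 0.486 in edgeR's test), that of *Opa1* was 0.07 (adjusted p = 0.717) and that of *Dnm1l* was -0.04 (adjusted p = 0.783). *Bnip3* stayed called under this term, at -0.86 (log2; adjusted p = 0.00604).

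**Figure D2:**
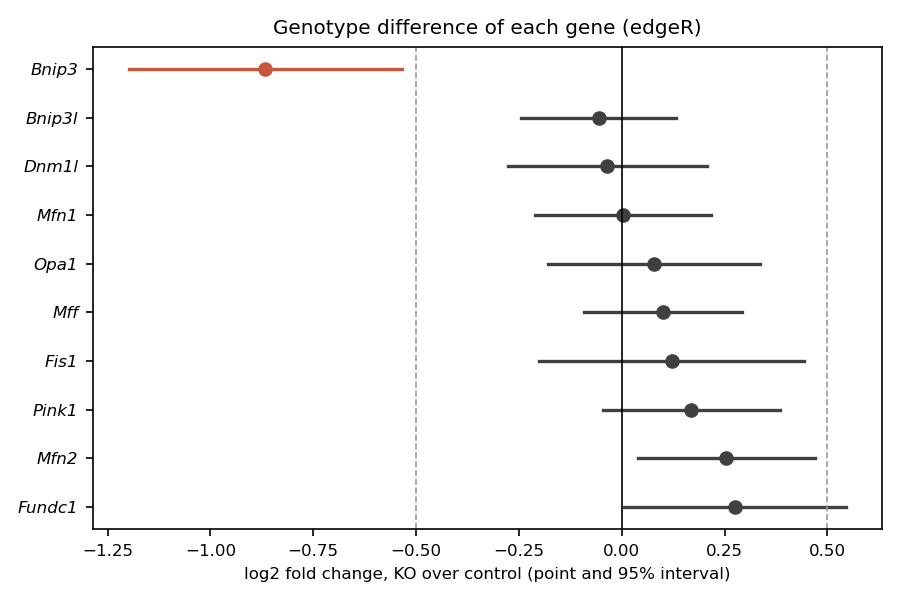
Log2 fold change of each of the 10 genes, NOX4-deficient (KO) over control, from edgeR. Points are estimates and lines are 95% intervals from 4 mice per genotype, the dashed lines mark the log2 fold change of 0.5 required for a call, and *Bnip3* (-0.87, in red) is the only gene called. The intervals of 8 genes lie inside the dashed lines.

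Compared per length of transcript (CPM per kilobase of merged GENCODE M21 exons), *Pink1* had the highest level of the 10 genes in both genotypes, 283 ± 18.2 in controls and 318 ± 20.3 in NOX4-deficient muscle (SD, n = 4 each). *Bnip3* was next in controls at 143 ± 35.9, a level whose spread reaches that of *Mfn2* at 105 ± 6.24. In NOX4-deficient muscle *Bnip3* stood at 78.2 ± 6.37 and *Mfn2* at 125 ± 9.26, so that their order was turned. The next in both genotypes were *Fis1* (46.0 in controls, 50.05 in NOX4-deficient muscle), *Mfn1* (33.9 and 34.0) and *Bnip3l* (23.2 and 22.3). *Opa1*, *Dnm1l*, *Fundc1* and *Mff* followed between 11.2 and 15.2 in controls and between 12.1 and 16.0 in NOX4-deficient muscle, where *Opa1*, *Dnm1l* and *Fundc1* did not differ beyond their spread. The build of the annotation (GRCm38) is not the one named in the submitters' processing notes (GRCm39), and transcripts in use can be shorter than the merged exons.

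The 4 transcripts whose levels were most like *Bnip3* over the 8 libraries were taken from 6938 rows with a mean of at least 10 CPM, by Pearson correlation of log2 CPM and as a description. They were *Sesn1* (r = 0.984), *Uck2* (0.981), *Exosc1* (0.980) and *Irf2* (0.979). The correlations take up the genotype difference itself, and with the group means removed they were 0.947, 0.918, 0.917 and 0.898, with control 4 the highest of the controls for each of the 4 genes as for *Bnip3*. *Sesn1*, which encodes the stress protein sestrin 1, fell from 36.8 to 19.1 CPM (log2 fold change -0.95, SE 0.188, adjusted p = 0.0119 in edgeR's test). *Uck2*, a uridine-cytidine kinase gene, fell from 23.0 to 13.9 CPM (log2 fold change -0.73, SE 0.1496, adjusted p = 0.0136). *Exosc1* (-0.30, adjusted p = 0.138) and *Irf2* (-0.32, adjusted p = 0.0917) were not called.

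The other genes of mitophagy and of mitochondrial shape were described in 7 lists of 90 genes in all, 86 of which were tested. Of these, 4 were called lower (4.65%, near the 3.48% of all rows) and 0 higher in edgeR's test. The 4 are *Sqstm1*, *Optn*, *Ulk1* and *Nfe2l2*. Among 17 other receptors and adaptors, 2 were called lower, and the median log2 fold change was -0.19 (13 negative, 4 positive). *Sqstm1*, which encodes the ubiquitin-binding adaptor p62, fell from 1120 ± 128 to 694 ± 58.8 CPM (SD, n = 4 each; log2 fold change -0.69, SE 0.115, adjusted p = 0.00456). *Optn*, which encodes the adaptor optineurin, fell from 135 ± 21.1 to 86.6 ± 16.6 CPM (log2 fold change -0.63, SE 0.148, adjusted p = 0.0227). The call of *Optn* was lost without control 4 (adjusted p = 0.0638), without NOX4-deficient mouse 1 (0.0592) or without NOX4-deficient mouse 3 (0.0612), and at an adjusted p under 0.01. *Tax1bp1*, another adaptor, named after its values were seen, had an adjusted p of 0.0138 at a log2 fold change of -0.46, short of the size required. With no minimum fold change it made 3 called lower in this list. *Tbk1*, also named after its values were seen, made 3 without NOX4-deficient mouse 4.

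Among 17 ubiquitin ligases, deubiquitinases and regulators of PINK1, FUNDC1 and BNIP3, 1 was called lower, and the median was -0.10. This was *Ulk1*, the gene for the kinase that starts autophagosome formation and phosphorylates FUNDC1. It had 142, 146, 152 and 196 CPM in controls 1 to 4 and 86.6, 92.9, 82.0 and 89.5 CPM in NOX4-deficient mice 1 to 4, with no overlap (log2 fold change -0.86, SE 0.115, adjusted p = 0.00127 in edgeR's test). As for *Bnip3*, control 4 was the highest library. *Usp14*, a deubiquitinase gene named after its values were seen, had an adjusted p of 0.0215 in edgeR's test at a log2 fold change of -0.48. It joined *Ulk1*, which made 2 called lower, without control 1, control 2 or NOX4-deficient mouse 2, or with no minimum fold change.

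Of 40 genes in the lists of shape and movement, 0 were called in edgeR's test or in any of the 19 alternatives, DESeq2 included, and 6 had an unadjusted p under 0.05. Of all rows, 3.48% were called lower and 2.68% higher. Unadjusted p-values under 0.05 were common in this series, since a p of 0.0494 in edgeR's test stood at rank 2937 of the 12725 rows. A difference between these lists and the others was not tested. These were 11 fission partners (median log2 fold change 0.01, from -0.24 to 0.32), 11 genes of fusion and of OPA1 processing (0.00, from -0.46 to 0.32), 12 genes of the cristae organizing system (0.01, from -0.07 to 0.20) and 6 genes of mitochondrial transport (0.05, from -0.12 to 0.20). Another list held 22 genes of the respiratory chain, import and matrix whose transcripts relate to mitochondrial content. Of these, 0 were called in the same tests and 1 had an unadjusted p under 0.05, with a median log2 fold change of 0.01. *Tomm20*, an import receptor gene whose protein is often used to gauge mitochondrial mass, had a log2 fold change of -0.12 (adjusted p = 0.494 in edgeR's test). Over the 19 alternatives it ranged from -0.14 to -0.06, smallest in size without NOX4-deficient mouse 2. *Vdac1*, which encodes the voltage-dependent anion channel, had a log2 fold change of 0.05 (adjusted p = 0.840 in edgeR's test). The summed content genes spanned 9079 to 11193 CPM in controls and 8951 to 11793 CPM in NOX4-deficient muscle, so that the fall of *Bnip3* was not accompanied by a separation of these sums. These are sums of RNA, in which the most abundant transcripts weigh most, and they do not measure mitochondrial content. In gastrocnemius of aged mice of this genotype, the paper reports less Tomm20 and succinate dehydrogenase staining and less of the mitochondrial complex proteins.

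Among 15 tested transcription factors known to act on these genes, 1 was called lower, and the median log2 fold change was -0.26 (12 negative, 3 positive). *Nfe2l2*, the gene for the antioxidant factor NRF2, had 69.5, 70.4, 71.4 and 69.9 CPM in controls 1 to 4 and 44.9, 52.7, 33.5 and 48.4 CPM in NOX4-deficient mice 1 to 4. These groups did not overlap (log2 fold change -0.65, SE 0.128, adjusted p = 0.0112 in edgeR's test). The number called lower ranged from 0 to 3 over the 19 alternatives, and 1 (*Ppargc1b*) was called higher with odd or even number as a term. It was 2 without a filter, without the robust option, with the replicate block or with odd or even number as a term. It was 3 with DESeq2 in R, with pydeseq2 or without NOX4-deficient mouse 4, and 0 at an adjusted p under 0.01. The following genes were named after their values were seen. *Ppargc1a*, which encodes the coactivator PGC-1α, had the largest difference of the list, with 127, 161, 54.2 and 55.9 CPM in controls 1 to 4 and 27.7, 33.0, 29.5 and 61.4 CPM in NOX4-deficient mice 1 to 4 (log2 fold change -1.39, SE 0.420, adjusted p = 0.0855 in edgeR's test). NOX4-deficient mouse 4 lay above controls 3 and 4, and the gene was called lower with DESeq2 in R, with pydeseq2 and without the robust option. *Foxo3*, known to act on *Bnip3* in muscle, had a log2 fold change of -0.58 with an adjusted p of 0.0624 and was called lower in 6 of the 19 alternatives. *Hif1a* had a log2 fold change of -0.16 with an adjusted p of 0.438 and was called in none.

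**Figure D3:**
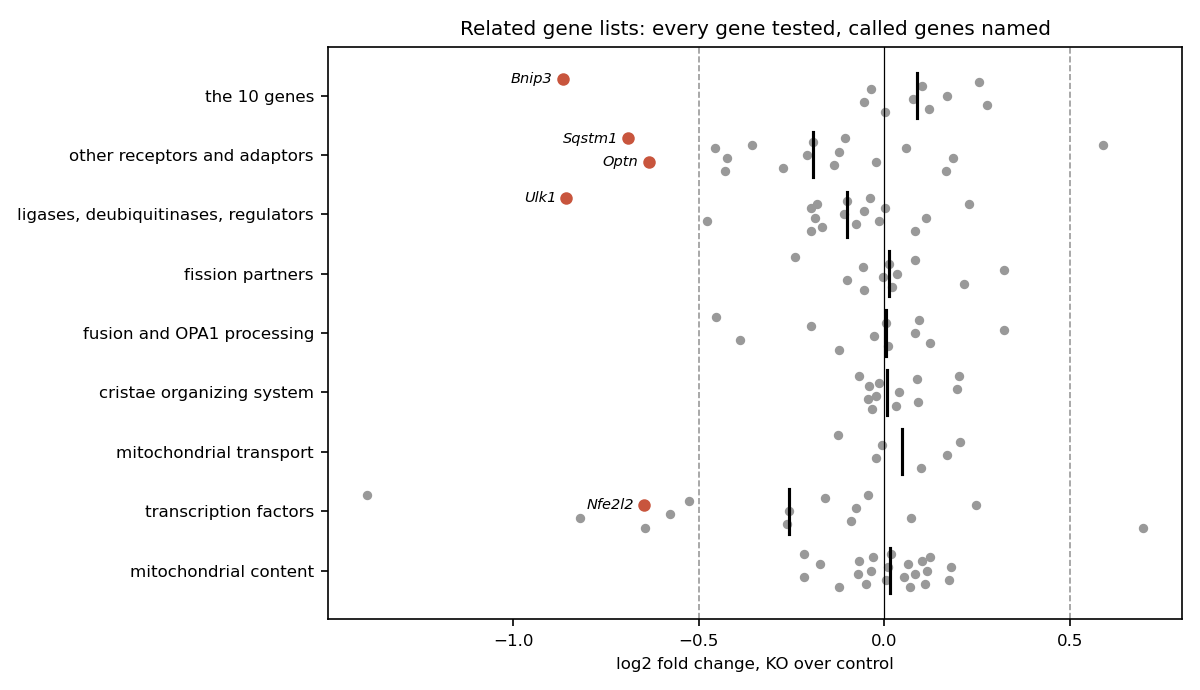
Log2 fold change, NOX4-deficient (KO) over control, of every tested gene in the 10 genes and in the related lists. Points are genes, vertical bars are list medians, dashed lines mark 0.5 in either direction, and called genes are red and named. *Bnip3*, *Sqstm1*, *Optn*, *Ulk1* and *Nfe2l2* are the genes called, all lower, and none of the fission, fusion, cristae, transport or content genes is called.

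The call of *Bnip3* was made in all 19 alternative settings, which changed the scaling, the filter, the tool, the terms of the model or the threshold, or left out 1 library. Its log2 fold change ranged from -0.96 to -0.68, and its adjusted p from 1.69e-05 to 0.0195. No other gene of the 10 was called in any of the 19. The estimates of *Mfn1*, *Opa1* and *Dnm1l* crossed 0 in some of them, whereas *Bnip3l* stayed between -0.07 and -0.01, *Fundc1* between 0.18 and 0.36, *Pink1* between 0.14 and 0.22, *Mfn2* between 0.21 and 0.31, *Fis1* between 0.04 and 0.23, and *Mff* between 0.08 and 0.14.

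**Figure D4:**
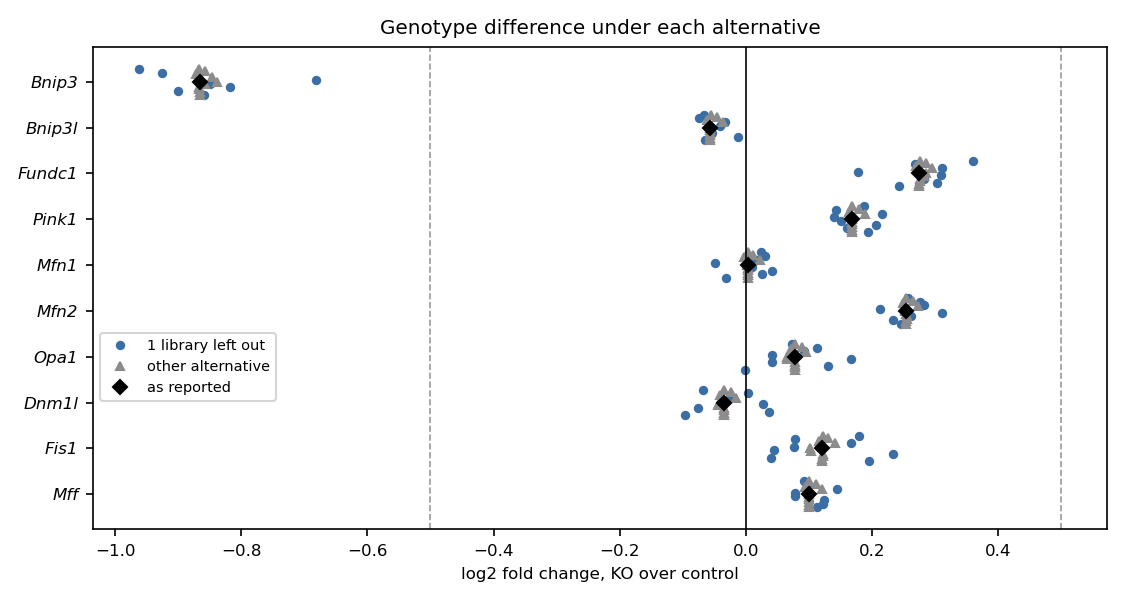
Log2 fold change of each of the 10 genes, NOX4-deficient (KO) over control, as reported (black diamonds), with 1 library left out (blue circles) and under the other alternatives (gray triangles). Dashed lines mark 0.5 in either direction. *Bnip3* stays beyond the dashed line in all 19 alternatives, nearest to it at -0.68 without control 4, and the other 9 genes stay inside.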

How the data were processed

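The authors isolated RNA from gastrocnemius, sequenced poly(A), unstranded, paired-end libraries and processed the reads with an nf-core pipeline. They deposited raw counts of reads per gene for each mouse, without normalization. The submitters' processing notes name STAR and GRCm39. The annotation and the settings of the counter are not given in the sources used here. All columns of values were matched to a mouse by name.

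Where a name occurred on several rows (412 repeats), the row with most counts was used. Counts were scaled by TMM, filtered with filterByExpr and tested with edgeR 4.0.16 (estimateDisp, robust glmQLFit, glmQLFTest; R 4.3.3), with genotype as the only term and all 8 mice. Benjamini-Hochberg adjustment ran over the 12725 rows that passed the filter. The limits for a call (adjusted p below 0.05, log2 fold change beyond 0.5 in either direction) are those of the study's methods. The tool differs from the study's, DESeq2 in Python, which was run as an alternative (pydeseq2 0.5.4, with DESeq2 1.42.0 in R). SEs are the fold change over the root of F, and 95% intervals use edgeR's total degrees of freedom. The common biological coefficient of variation was 0.174, and the SEs of the 10 genes ran from 0.0868 to 0.153. CPM and ratios were also compared with exact two-sided permutation tests over the 70 assignments of 4 mice to a group. P-values set the genotype difference against the spread between mice within the groups, and they rest on these 8 mice alone. The 12 pairs of replicates differed by more than counting error (chi-square divided by its degrees of freedom, 12.6 to 52.1).

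Alternatives were DESeq2 size factors, library size only, no filter, a minimum of 10 counts per sample, a non-robust fit, a replicate block, odd or even replicate number, each mouse left out, DESeq2, pydeseq2, an adjusted p under 0.01 and no minimum fold change. The genes named are the 10, *Nox4*, *Tomm20*, *Vdac1*, those called in each list and the 4 transcripts most correlated with *Bnip3* (log2 CPM, prior count 2), besides those said to be named after their values were seen. The 10 genes and all lists were chosen with earlier results of these data known. Promoter windows are from RefSeq (GRCm38.p6), and exon lengths and overlaps from GENCODE M21. No protein sequence was used here, and 1 gene first planned for the lists is not reported here.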

Additional observations from a re-analysis of the deposited data

Results flagged for a closer look

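In 78 groups of 4 libraries (in each genotype, the 10 genes, both paralog ratios, *Nox4*, the called genes of the lists, *Tomm20*, *Vdac1*, the 4 genes most like *Bnip3*, the summed lists and the total counts), a library was singled out where its gap to the nearest other was too large a share of the range of its group (above Dixon's 95% critical value). This occurred in 5 groups, and chance gives about 3.9. None of the 5 was a group of the 10 genes. Summed mitochondrial transport genes were highest in control 2 (gap 0.887 of the range), and summed mitochondrial content genes were lowest in control 4 (0.866). Summed skeletal muscle markers were highest in control 3 (0.891), and summed adipocyte markers were highest in control 1 (0.862). *Nox4* was lowest in NOX4-deficient mouse 1 (0.918). Control 4 was also the control with the most *Bnip3*, and the value of *Bnip3* without it is given beside its result.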

How the results depend on the processing

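The number of the 10 genes called, 1 lower and 0 higher, was the same in all 19 alternatives. Over all rows, 443 were called lower and 341 higher. At an adjusted p under 0.01 these were 156 and 96, and with 1 library left out they ranged from 295 to 425 and from 204 to 317, lowest for both without control 4 (295 and 204). Without control 2, 227 were called higher. With 1 library left out, log2 fold changes that crossed 0 ranged from -0.048 to 0.042 for *Mfn1*, from -0.097 to 0.037 for *Dnm1l*, from -0.00055 to 0.17 for *Opa1* and from -0.0078 to 0.14 for *Vdac1*. Without a filter on low counts *Mfn1* was at -0.0023. None of these passed the test. Same-numbered libraries deviated together with correlations of 0.223, 0.147, 0.0410 and 0.0412, so that the numbers are not taken to pair the mice. With a replicate block, *Bnip3* was at -0.84 (log2; adjusted p = 0.00277 in edgeR's test), the genes called among the 10 were the same, and 543 rows were called lower and 390 higher. Only control 1 correlated best with its own number. The cause of these changes was not tested, beyond the smaller groups and the stricter threshold themselves. With 4 mice a group and SEs of up to 0.153, differences of about the size of *Mfn2* (0.25) did not pass the test, and intervals of the genes not called reach 0.55.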
